A study of Mus musculus with 24 samples.

Results

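Expression of 10 transcription factors and cofactors of the red cell lineage was followed in mouse reticulocytes. The genes were the partners GATA1, TAL1, LMO2 and LDB1, the Krüppel-like factors KLF1 and KLF3, the factors NFE2 and BACH1, which both pair with small MAF proteins, the globin repressor BCL11A and the MYC antagonist MXI1. They were taken by name, as all probes annotated to Gata1, Tal1, Lmo2, Ldb1, Klf1, Klf3, Nfe2, Bach1, Bcl11a and Mxi1, which gave 10 of 16593 gene names and 11 of 25697 probes on the array. Gata1 had 2 probes and each other gene had 1.

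Reticulocytes are young red cells that have lost their nucleus, so their RNA was largely made earlier, in nucleated precursors, and is degraded as the cells mature. In those precursors GATA1 binds GATA sequences and TAL1 binds E boxes with E proteins, and LMO2 and LDB1 join both into a complex that links enhancers to promoters of red cell genes. KLF1 activates beta-globin and many other red cell genes, KLF3 represses through CtBP at similar CACCC sequences, and NFE2 and BACH1 activate or repress genes with antioxidant-response type sites, BACH1 being released from DNA by heme.

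Blood rich in reticulocytes was taken from adult male C57BL/6J mice and kept ex vivo, and total RNA was collected at 0, 12 and 24 h. Mutant reticulocytes gave 5 arrays and wild-type reticulocytes 3 arrays at each time, 24 Illumina mouse bead arrays in all. The labels call the mutant group only mutant and do not name the altered gene, its allele or any Cre, so the labels could not be checked against a targeted gene. The design text calls the replicates biological, and precision is limited by these few arrays. A key deposited with the data gives 15 for the time that the labels give as 12 h, which is used here.

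The 0 h arrays stood apart from the rest. Their median raw signal was 139 to 278 in mutant and 132 to 298 in wild type, against 38.7 to 44.7 on all later arrays, and it was over 200 on mutant arrays 1 and 2 and wild-type arrays 2 and 3. Results at 0 h are also given on these 4 arrays of higher background and on the others, a split chosen after seeing the data. Wild type keeps 1 array at lower background, so differences that use it are given as values with no test. A probe was called above background at a detection p below 0.01. The share of probes above background was 3.60 to 17.0% in mutant and 2.17 to 4.62% in wild type at 0 h, 12.97 to 28.8% and 4.92 to 6.62% at 12 h, and 10.2 to 18.3% and 6.93 to 7.72% at 24 h. Red cell markers were present in every group, with 5 to 8 of the 9 on the array above background and Epb42 (band 4.2) not above background in any. Among markers of nucleated precursors, Myb and Gata2 were above background on no array, while the summed signal of the list on the linear normalised scale was 196 to 321 in mutant and 482 to 1506 in wild type at 0 h, 276 to 399 and 945 to 1681 at 12 h, and 648 to 911 and 2097 to 2505 at 24 h. Of the 6 on the array, 0 to 4 were above background in mutant and 1 in wild type at 0 h, 3 and 1 at 12 h, and 2 to 3 and 2 at 24 h. The wild-type sum at 0 and 12 h thus held only 1 gene above background, and the number above background did not follow the sum. Of its 4 tested genes, 1, 2 and 2 were lower in mutant at 0, 12 and 24 h and 1 was higher at each time. Of the tested B cell markers, 12 of 12 passed the test as higher in mutant at 0 h and 12 of 12 at 12 h, and 0 of 12 at 24 h. Their summed signal on the linear normalised scale was 2333 to 7921 in mutant and 463 to 1218 in wild type at 0 h, 2783 to 8044 and 1228 to 1761 at 12 h, and 1295 to 2924 and 867 to 1459 at 24 h, with the defining markers Pax5 and Ebf1 not above background in any group. Of the tested platelet markers, 6 of 11, 7 of 11 and 2 of 11 were higher in mutant at 0, 12 and 24 h, and 1 was lower at 12 h. Neutrophil markers were higher in 7, 5 and 2 of 10 tested and monocyte markers in 4, 4 and 1 of 7, with 0 lower. At 0, 12 and 24 h, 34.1, 34.3 and 8.61% of all tested genes were higher in mutant and 8.4, 15.9 and 8.17% lower. The marker counts are read only beside these shares, since genes could be tested through mutant arrays alone. The summed neutrophil signal at 0 h was 3098 to 12704 in mutant and 726 to 2074 in wild type. In blood RNA, fewer cells of a type and less RNA per cell cannot be told apart, and the part of these other cells and precursors in the differences below was not tested.

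All 10 genes passed the filter, a detection p below 0.01 on at least 3 of the 24 arrays, but few were measured above background throughout. Lmo2 was above background on 15 of 15 mutant arrays and 9 of 9 wild-type arrays, Nfe2 on 15 and 7, Ldb1 on 15 and 5, Klf3 on 14 and 1, and Mxi1 on 11 and 6. Klf1 was above background on 9 mutant arrays, Tal1 and Bach1 on 8 each and Bcl11a on 7, and none of these 4 genes on any wild-type array, so they entered the test through mutant arrays alone. The main Gata1 probe was above background on 4 mutant arrays and 1 wild-type array at this limit, and on 16 of the 24 arrays at a detection p below 0.05, and the second Gata1 probe on 2 mutant arrays and 1 wild-type array. The number of the 10 genes with any probe above background per array was 3 to 7 in mutant and 1 to 4 in wild type at 0 h, 7 to 9 and 3 to 4 at 12 h, and 8 to 10 and 4 to 5 at 24 h.

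**Figure D1:**
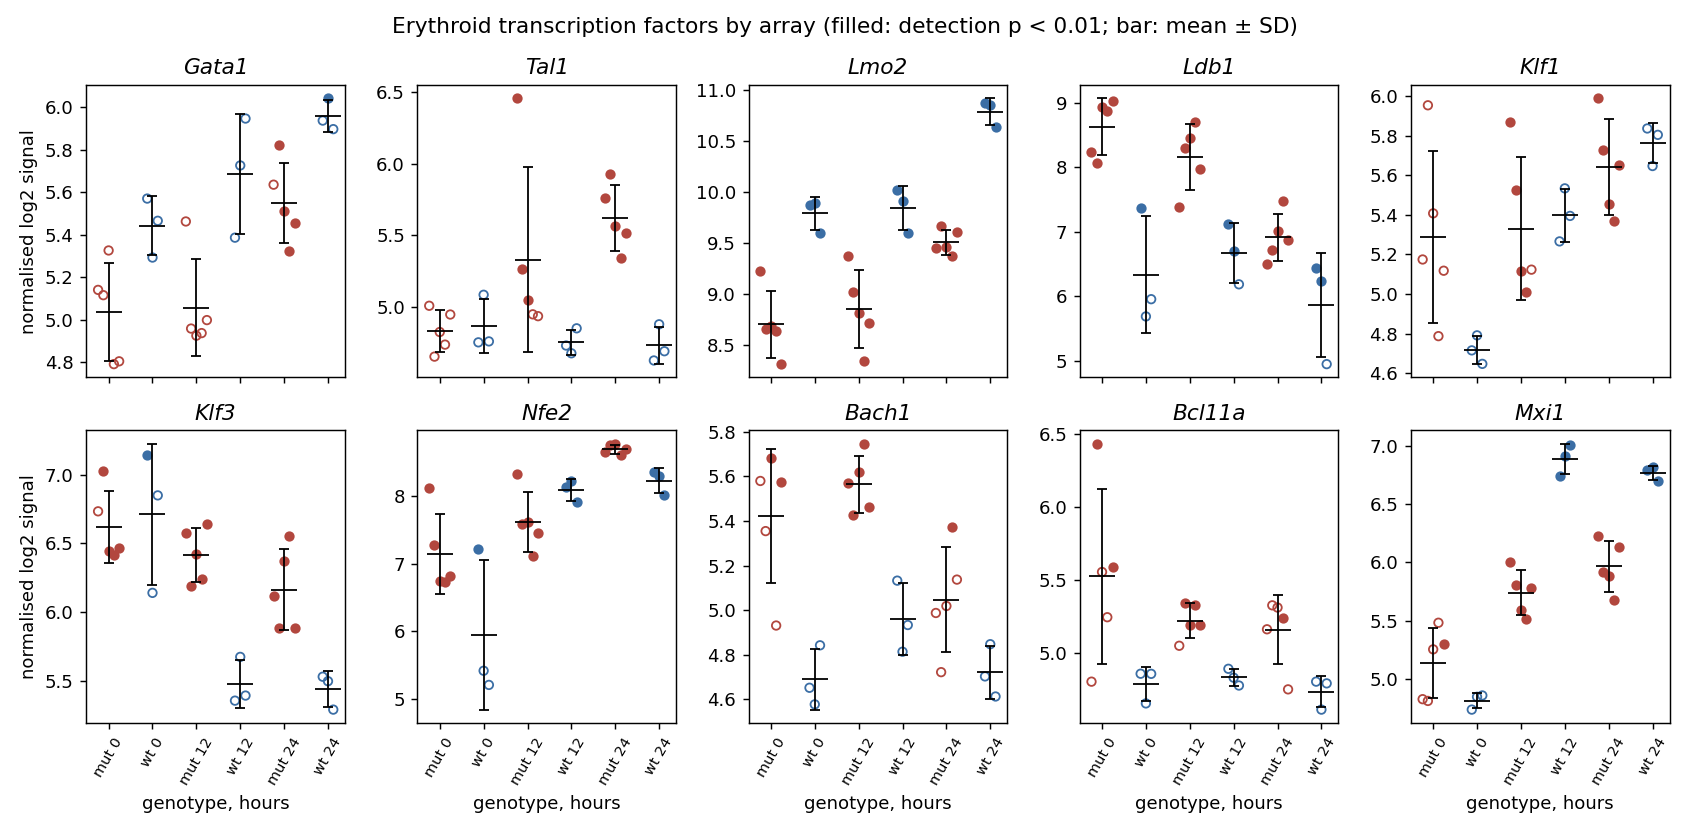
Normalised log2 signal (vertical axis) of each of the 10 genes on every array, by genotype and hours of culture (horizontal axis; mut, mutant, n = 5; wt, wild type, n = 3). Each point is an array, filled where the detection p was below 0.01, and bars give mean ± SD; wild-type points of Tal1, Klf1, Bach1 and Bcl11a are all open, and all points of Lmo2 are filled.

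The promoters of the 10 genes were searched for the sequences that GATA1 and TAL1 bind. RefSeq (GRCm38.p6) gave promoters for 8 of the 10 genes, with 13 start sites. The letters GATA, preceded by A or T and followed by A or G, on either strand, were found in the 250 bases before the start of 4 genes (Tal1, Klf1, Bach1 and Ldb1), at 4 of their start sites, against 26.5% of the 32851 promoters in the table. The TAL1 E box CAGATG, searched on both strands, was found for Klf1 and Mxi1, against 14.4% of promoters. A match is a description of the letters and not a measured binding site. Klf1 and Tal1 are shown, since both are textbook targets of GATA1, with the GATA letters (read on the other strand) in capitals. They begin 80 bases before the start in Klf1 (chr8:84901732-84901981, plus strand), where CAGATG begins 59 bases before the start, and 205 bases before it in Tal1 (chr4:115056176-115056425, plus strand).
Klf1: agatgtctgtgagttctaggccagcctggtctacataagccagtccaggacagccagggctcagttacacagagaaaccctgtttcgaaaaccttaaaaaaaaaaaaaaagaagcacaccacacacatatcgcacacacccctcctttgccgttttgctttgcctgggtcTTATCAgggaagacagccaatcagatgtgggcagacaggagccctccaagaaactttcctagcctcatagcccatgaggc
Tal1: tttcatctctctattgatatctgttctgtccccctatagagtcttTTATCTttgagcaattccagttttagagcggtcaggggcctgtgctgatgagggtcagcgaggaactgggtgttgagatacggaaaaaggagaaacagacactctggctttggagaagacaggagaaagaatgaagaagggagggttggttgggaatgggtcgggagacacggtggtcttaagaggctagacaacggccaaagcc

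The comparison of genotypes asked how levels of these regulators in mutant reticulocytes stood against wild type at each time. At 0 h, 6 of the 10 genes passed the test at an adjusted p of 0.05. Ldb1, Nfe2, Bach1, Bcl11a and Klf1 were higher and Lmo2 was lower, beside 42.5% of the 4846 tested genes that passed (34.1% higher, 8.4% lower). Fewer of the 10 passed at 0 h with array weights or when only the 0 h groups were fitted, as counted in the closing section. At 12 h, 7 passed, with Ldb1, Klf3, Bach1 and Tal1 higher and Lmo2, Mxi1 and Gata1 lower, beside 50.2% of tested genes (34.3% higher, 15.9% lower). At 24 h, 4 passed, with Tal1 and Klf3 higher and Lmo2 and Mxi1 lower, beside 16.8% (8.61% higher, 8.17% lower). The median difference of the 10 genes was 0.45, 0.16 and 0.37 log2 units at 0, 12 and 24 h, beside 0.26, 0.29 and 0.17 over all tested genes. These shares are read only beside the background, since Tal1, Klf1, Bach1 and Bcl11a passed the filter through mutant arrays alone, and several of these differences, named below, are between values not above background.

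Differences are mutant minus wild type in log2 units of background-corrected, quantile-normalised signal, ± SE from limma, and a difference of 1 is a factor of 2. Since arrays were scaled to each other, a level, rise or fall below is relative to other transcripts. Amounts of RNA per cell were not measured. Centring each array on its median in place of quantile normalisation shifted the median of all tested genes, to 0.61, 0.78 and 0.26 log2 units at 0, 12 and 24 h. It also moved the share of higher genes among those passing to 97.6, 91.6 and 84.9%, beside 80.2, 68.3 and 51.3% with quantile normalisation and 88.9, 21.6 and 58.0% with the authors' processed values. The authors' values were likewise put on a log2 scale and centred on the median of each array before use, so they are not the deposited values unchanged. Directions of the factors and cofactors taken by name are therefore given below with these scalings wherever they flip. Directions of genes in the related lists and marker lists are given with quantile normalisation only. Whether they hold under the other scalings was not tested.

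**Figure D2:**
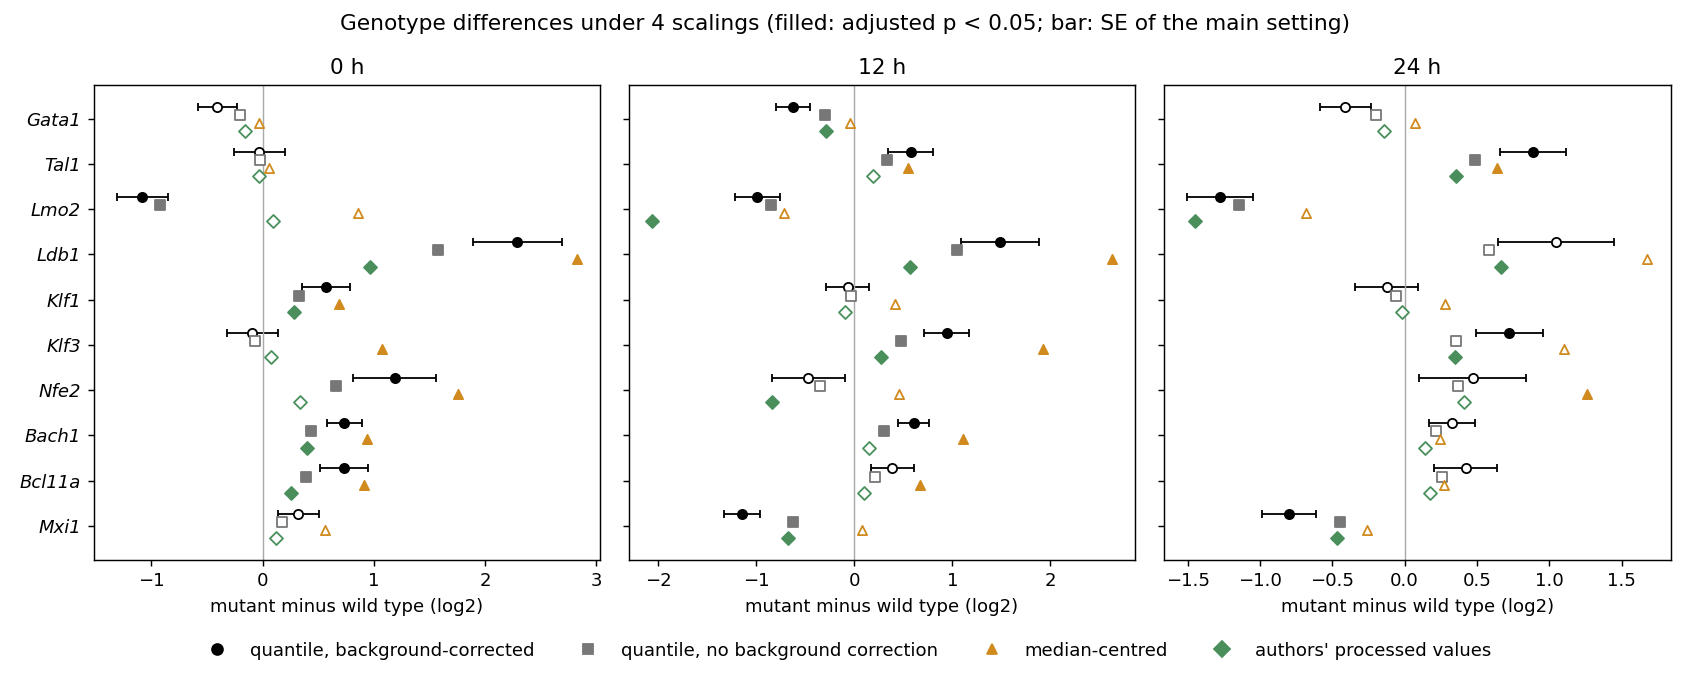
Mutant minus wild-type log2 difference (horizontal axis) of the 10 genes at 0, 12 and 24 h under 4 scalings, filled where the adjusted p was below 0.05, with bars for the SE of the quantile-normalised, background-corrected values (5 mutant and 3 wild-type arrays at each time). Ldb1 lies right of 0 in every case shown; Lmo2 lies left of 0 at 12 and 24 h in every case, while at 0 h it lies right of 0 with the authors' processed values (0.10) and with median centring (0.85), and Mxi1 at 12 h lies at 0.07 with median centring.

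Ldb1, the dimerising protein that lets the complex join distant DNA elements, was higher in mutant by 2.29 ± 0.40 log2 units at 0 h (limma adjusted p = 8.3e-05) and by 1.49 ± 0.40 at 12 h (0.0055). At 0 h its mutant arrays read 8.23, 8.07, 8.93, 8.87 and 9.03 log2 units, against 7.37, 5.69 and 5.95 in wild type. Every mutant array lay above every wild-type array at this time. At 12 h the mutant arrays read 7.38, 8.29, 8.45, 8.70 and 7.98 and the wild-type arrays 7.12, 6.71 and 6.18, again without overlap. At 24 h the mutant arrays read 6.51, 6.71, 7.02, 7.47 and 6.87 and the wild-type arrays 6.43, 6.23 and 4.95. Although these did not overlap, the difference of 1.05 ± 0.40 missed the threshold (0.073). Without wild-type array 1 of 0 h, which changes the shared spread, it was 1.06 with an adjusted p of 0.032, and it passed with the authors' processed values (0.67, 0.023). Ldb1 stayed higher in mutant past the threshold at 0 and 12 h under every alternative that was run, with 0.97 to 2.83 log2 units at 0 h and 0.56 to 2.63 at 12 h. With only the 0 h arrays of median signal over 200 the difference at 0 h was 2.39 (adjusted p 0.00047), and with only those under 200 it was 1.61.

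In culture Ldb1 declined in mutant, by -1.24 ± 0.35 log2 units at 24 h against 12 h (limma adjusted p = 0.010) and by -1.71 ± 0.35 at 24 h against 0 h (0.00034). The mutant arrays of 24 h lay below all mutant arrays of 0 h. With the authors' processed values these falls were -0.29 (0.30) and -0.32 (0.15), and with median centring the fall over the whole time was -1.35 (0.055). In wild type Ldb1 moved by 0.33 ± 0.45 from 0 to 12 h (0.56) and by -0.80 ± 0.45 from 12 to 24 h (0.40). The difference between genotypes in these changes, -0.80 ± 0.57 (0.38) and -0.44 ± 0.57 (0.83), did not pass the test.

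Lmo2, the bridge between TAL1 and LDB1, went the other way and was lower in mutant at 12 and 24 h. At 12 h it read 9.37, 9.02, 8.82, 8.34 and 8.71 log2 units in mutant, against 10.01, 9.91 and 9.60 in wild type. At 24 h it read 9.44, 9.66, 9.45, 9.37 and 9.61 in mutant and 10.87, 10.85 and 10.63 in wild type. The groups did not overlap at either time. The differences were -0.99 ± 0.23 at 12 h (limma adjusted p = 0.0019) and -1.28 ± 0.23 at 24 h (0.00039), and -2.07 and -1.45 with the authors' processed values. The raw signals before any normalisation also did not overlap, with 404 to 672 in mutant and 697 to 2022 in wild type at 12 h and 817 to 1028 and 1288 to 1704 at 24 h. With median centring the differences kept their direction and missed the threshold, at -0.71 (0.068) and -0.68 (0.25). Relative to the median of all tested genes under that scaling they were -1.49 and -0.94 log2 units, beside -1.28 and -1.45 with quantile normalisation.

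At 0 h Lmo2 read 9.22, 8.65, 8.69, 8.64 and 8.31 log2 units in mutant and 9.87, 9.89 and 9.60 in wild type, a difference of -1.08 ± 0.23 (limma adjusted p = 0.00065), which turned to 0.10 (0.85) on the authors' processed values and to 0.85 (0.054) on median-centred ones. Its raw signal at 0 h was 535 to 838 in mutant, against 469 to 589 in wild type, on arrays whose background differed. The direction of Lmo2 at 0 h thus depended on the scaling. Over all alternatives the adjusted p ranged from 7.2e-05 to 0.85. Lmo2 rose in culture in both genotypes, by 0.80 ± 0.20 in mutant (0.0021) and 0.997 ± 0.26 in wild type (0.0025) at 24 h against 0 h, and both rises passed under every alternative run. Their size depended on the scaling, with 0.60 to 2.26 in mutant and 0.90 to 3.80 in wild type over the alternatives. Most of the rise in mutant came between 12 and 24 h, 0.66 ± 0.20 (0.018, and 0.54 with 0.061 without mutant array 4 of 12 h). In wild type it was 0.94 ± 0.26 in that interval (0.028), the only change among the 10 genes to pass there, beside 5.82% of tested genes (3.94% higher, 1.88% lower). That call was lost without wild-type array 2 of 12 h (0.97, 0.066), array 3 of 12 h (0.82, 0.15), array 1 of 24 h (0.90, 0.10) or array 2 of 24 h (0.91, 0.11). With median centring it was 0.90 (0.41), and on the authors' values 1.18 (0.078). From 0 to 12 h Lmo2 moved by 0.15 ± 0.20 in mutant (0.59) and 0.05 ± 0.26 in wild type (0.88), a wild-type value that was 2.27 (9.8e-05) on median-centred values and 2.62 (3.6e-06) on the authors' values.

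Tal1, the E-box factor of the complex, was near background in most groups and passed the test between genotypes at 12 and 24 h, where it was above background on mutant arrays alone. At 24 h it read 5.76, 5.93, 5.57, 5.34 and 5.51 log2 units on the mutant arrays, all above background, and 4.63, 4.88 and 4.69 on the wild-type arrays, none above background. The difference of 0.89 ± 0.23 (limma adjusted p = 0.0097) passed under every alternative run, with 0.36 to 1.02 log2 units. No fold is given, since the bound against the wild-type background was under 1, so that the size of the difference in level is not measured. At 12 h the mutant arrays read 6.46, 5.26, 5.05, 4.95 and 4.94, against 4.73, 4.68 and 4.85 in wild type. Mutant array 1 lay far above the others, and without it the difference of 0.58 ± 0.23 (0.041) was 0.30 (0.065). Its call ended as well without mutant array 2 (0.59, 0.053) or wild-type arrays 1 (0.58, 0.088), 2 (0.55, 0.11) or 3 (0.64, 0.079) of that time, and with the authors' processed values (0.19, 0.16). At 0 h the means were 4.84 ± 0.15 in mutant (SD, n = 5) and 4.87 ± 0.19 in wild type (SD, n = 3), all below background. In mutant the Tal1 values at 24 h were higher than at 0 h by 0.79 ± 0.20 (0.0026), under every alternative run, with all 0 h arrays below background and no fold to give. Its change of 0.49 ± 0.20 from 0 to 12 h missed the threshold (0.064) and passed with the replicate number as a block within each genotype (0.035).

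Gata1, the factor at the centre of the group, gave weak signals throughout and passed the test at 12 h, between values not above background. The mutant arrays read 5.46, 4.96, 4.93, 4.94 and 5.00 log2 units, against 5.39, 5.73 and 5.95 in wild type, and mutant array 1 overlapped with wild type. The difference of -0.63 ± 0.17 (limma adjusted p = 0.0065) is between values below background in both groups, so no fold is given. It was lost without wild-type array 3 of 12 h (-0.51, 0.058) and with median centring (-0.05, 0.83, or -0.82 relative to the median of all tested genes under that scaling, beside -0.92 with quantile normalisation). A second Gata1 probe differed by -0.46 ± 0.15 at 12 h (0.017) and by -0.65 ± 0.15 at 24 h (0.0037), where the main probe differed by -0.41 ± 0.17 (0.10). At 0 h the main probe differed by -0.41 ± 0.17 (0.061) and the second by -0.07 ± 0.15 (0.75). In culture the normalised Gata1 values at 24 h stood above those of 0 h, none of which was above background, by 0.51 ± 0.15 in mutant (0.0077) and by 0.52 ± 0.19 in wild type (0.031), and those of the second probe by 0.77 ± 0.13 (3.8e-05) and 1.36 ± 0.17 (5.4e-07). With median centring the main probe moved by 0.18 in mutant (0.35) and 0.08 in wild type (0.94), and with the authors' processed values by 0.15 (0.088) and 0.13 (0.23). The wild-type difference further missed the threshold on leaving out wild-type array 2 (0.45, 0.10) or 3 (0.54, 0.054) of 0 h or array 1 (0.53, 0.060) or 2 (0.48, 0.088) of 24 h. Between 12 and 24 h the mutant level rose at least 1.31-fold (0.018), with 4 of 5 arrays above background at 24 h, taking each 12 h array at the lowest signal it measured above background. That call was lost without mutant array 3 (0.44, 0.053) or 4 (0.42, 0.055) of 12 h or array 2 of 24 h (0.43, 0.059). Over all alternatives the difference was 0.20 to 0.60 log2 units with a limma adjusted p of up to 0.11. The 1.31-fold bound was computed with quantile normalisation only and is not a firm limit under other processing.

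Klf3, a repressor that is itself a target of KLF1, was higher in mutant at 12 and 24 h. At 12 h it read 6.58, 6.19, 6.42, 6.24 and 6.64 log2 units in mutant, all above background, and 5.36, 5.68 and 5.39 in wild type, none above background. This is a difference of 0.94 ± 0.23 (limma adjusted p = 0.0032), or at least 1.03-fold against the background of the wild-type arrays, and it passed under every alternative run (0.27 to 1.92). At 24 h the mutant arrays read 6.12, 5.89, 6.37, 6.55 and 5.88 and the wild-type arrays 5.53, 5.50 and 5.29, without overlap. The difference of 0.72 ± 0.23 (0.034, at least 1.07-fold) was lost without mutant array 3 (0.66, 0.084) or 4 (0.61, 0.095), or without wild-type array 1 (0.77, 0.070), 2 (0.76, 0.097) or 3 (0.65, 0.13). At 0 h the genotypes overlapped, with a mean of 6.62 ± 0.26 in mutant (SD, n = 5) and 6.71 ± 0.51 in wild type (SD, n = 3). The difference of -0.09 ± 0.23 (0.77) was 0.39 (0.36) on the arrays of higher background, -0.75 on those of lower background and 1.08 (0.035) with median centring.

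In culture Klf3 did not pass the test in mutant and passed as lower in wild type, where most values were below background. At 0, 12 and 24 h its mutant levels averaged 6.62, 6.42 and 6.16 log2 units, and its wild-type levels 6.71, 5.48 and 5.44. In mutant the changes at 12 and 24 h against 0 h were -0.20 ± 0.20 (limma adjusted p = 0.47) and -0.45 ± 0.20 (0.069). In wild type the values at 12 and 24 h lay below those of 0 h by -1.23 ± 0.26 (limma adjusted p = 0.00050) and -1.27 ± 0.26 (0.00029). Since 1 of 3 wild-type arrays was above background at 0 h and none later, no fold is given. With median centring these were -0.66 (0.45) and -0.68 (0.38), and the authors' processed values gave -0.23 (0.061) and -0.28 (0.025). The change from 0 to 12 h differed between genotypes by 1.03 ± 0.33 (0.034), 1 of 3 such interactions among the 10 genes, beside 15.6% of tested genes (3.36% higher, 12.2% lower). It was 0.50 (0.24) on the 0 h arrays of higher background and 1.78 on those of lower background. The call was lost on leaving out any of 9 single arrays, mutant arrays 3, 4 or 5 or wild-type arrays 1 or 3 of 0 h, or mutant arrays 3 or 5 or wild-type arrays 1 or 3 of 12 h, with 0.83 to 1.01 log2 units and adjusted p of 0.050 to 0.083.

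Klf1, the activator of adult beta-globin, was close to background and above it only on mutant arrays. At 12 and 24 h it did not pass between genotypes, with differences of -0.07 ± 0.22 (limma adjusted p = 0.82) and -0.12 ± 0.22 (0.72), which with median centring were 0.42 (0.056) and 0.28 (0.43). At 0 h the mutant arrays read 5.17, 5.95, 5.41, 4.79 and 5.12 log2 units and the wild-type arrays 4.72, 4.79 and 4.65, all below background and overlapping. The difference of 0.57 ± 0.22 (0.039) was lost without mutant array 2 (0.40, 0.098) or 3 (0.52, 0.075) or wild-type array 1 (0.58, 0.075), 2 (0.62, 0.063) or 3 (0.54, 0.10). Other alternatives lost this call as well, and over all of them the difference was 0.28 to 0.74 log2 units. Wild-type Klf1 values at 12 and 24 h against 0 h differed by 0.68 ± 0.24 (0.026) and 1.04 ± 0.24 (0.0011), but no wild-type array of any time was above background, so no change in level is read from them. The 12 h value lost its call without wild-type array 3 of 0 h (0.65, 0.073) or array 2 (0.63, 0.085) or 3 (0.70, 0.055) of 12 h. With median centring these values were 0.27 (0.59) and 0.41 (0.22). In mutant Klf1 moved by 0.35 ± 0.19 at 24 h against 0 h (0.14).

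Nfe2, the red cell subunit of NF-E2, rose in culture relative to other transcripts in both genotypes. At 0 h, 5 of 5 mutant arrays but only 1 of 3 wild-type arrays were above background, so the size of the wild-type rise is poorly measured. In mutant it read 8.11, 7.28, 6.74, 6.73 and 6.82 log2 units at 0 h, 8.32, 7.58, 7.61, 7.11 and 7.44 at 12 h and 8.65, 8.74, 8.77, 8.60 and 8.68 at 24 h. In wild type it read 7.21, 5.42 and 5.21 at 0 h, 8.13, 8.21 and 7.90 at 12 h and 8.35, 8.30 and 8.01 at 24 h. The mutant arrays of 24 h, with an SD of 0.07, lay above every earlier mutant array, and the wild-type arrays had reached their later level by 12 h. Against 0 h, Nfe2 at 24 h was higher by 1.55 ± 0.32 in mutant (limma adjusted p = 0.00043) and by 2.27 ± 0.42 in wild type (9.1e-05). The direction held under every alternative run, with 1.06 to 2.16 log2 units in mutant and 1.04 to 2.94 in wild type. Between 0 and 12 h the mutant change was 0.48 ± 0.32 (0.27) and the wild-type rise 2.14 ± 0.42 (0.00023), and from 12 to 24 h the mutant rise was 1.08 ± 0.32 (0.017) and the wild-type change 0.14 ± 0.42 (0.95). The wild-type rise from 0 to 12 h was 0.91 to 2.80 log2 units over the alternatives.

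The genotypes differed in the Nfe2 change from 0 to 12 h by -1.66 ± 0.53 log2 units (limma adjusted p = 0.034), a value that rests on the 0 h arrays. It was -2.87 (5.0e-05) with only the 0 h arrays of higher background and -0.01 with only those of lower background. The call was also lost on leaving out any of 8 single arrays, wild-type arrays 2 or 3 of 0 h, mutant arrays 2, 4 or 5 of 12 h, or any wild-type array of 12 h, with -1.76 to -1.31 log2 units and adjusted p of 0.051 to 0.12. The same arrays decide the genotype difference at 0 h. It was 1.19 ± 0.37 with all arrays (0.014), 1.85 when wild-type array 1 was left out, 0.94 (0.080) when array 2 was and 0.83 (0.11) when array 3 was, 2.37 (2.0e-05) with only the arrays of higher background and -0.48 with only those of lower background. With the authors' processed values it was 0.34 (0.26). At 12 h the difference was -0.47 ± 0.37 (0.29), which passed as -0.84 (0.0084) on the authors' values and as -0.68 (1.9e-05) with array weights and turned to 0.45 (0.26) on median-centred ones. At 24 h it was 0.47 ± 0.37 (0.38). The genotype difference in the change from 12 to 24 h, 0.94 ± 0.53, did not pass (0.50), while it was 1.25 (0.025) with the authors' processed values.

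Bach1, the heme-sensitive repressor that competes with NFE2 for small MAF partners, passed the test as higher in mutant at 0 and 12 h. At 0 h it read 5.58, 5.35, 5.68, 4.93 and 5.57 log2 units in mutant and 4.65, 4.58 and 4.84 in wild type. At 12 h it read 5.57, 5.43, 5.62, 5.75 and 5.46 in mutant and 5.13, 4.81 and 4.93 in wild type. The groups did not overlap at either time, no wild-type array was above background, and 2 of 5 mutant arrays at 0 h and 5 of 5 at 12 h were. The differences were 0.73 ± 0.16 (limma adjusted p = 0.00070) and 0.61 ± 0.16 (0.0042). The bound against background was under 1 at both times. The 0 h call was lost with array weights (0.69, 0.065) and when only the 0 h groups were fitted (0.73, 0.11), and the 12 h call was lost with the authors' processed values (0.15, 0.14). On the 0 h arrays of higher and of lower background the 0 h difference was 0.65 (0.0036) and 0.77. At 24 h the genotypes overlapped, with a difference of 0.33 ± 0.16 (0.15).

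In mutant Bach1 fell between 12 and 24 h, by -0.52 ± 0.14 log2 units (limma adjusted p = 0.0069), with every 24 h array below every 12 h array. With the authors' processed values this was -0.15 (0.10). At 24 h only 1 of 5 mutant arrays was above background, so the size of the fall is poorly measured. Against 0 h the fall was -0.38 ± 0.14 (0.027), and it was lost without mutant array 1 (-0.34, 0.052), 3 (-0.30, 0.074) or 5 (-0.32, 0.055) of 0 h or array 1 (-0.37, 0.055), 2 (-0.30, 0.098) or 3 (-0.37, 0.051) of 24 h. With quantile normalisation, Nfe2 values in mutant were higher and Bach1 values lower at 24 h than at 12 h, with Bach1 near background at 24 h. In wild type Bach1 was below background at every time and moved by 0.03 ± 0.18 at 24 h against 0 h (0.90).

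Bcl11a, which represses embryonic and fetal-type globin genes and is also a B cell factor, passed the test as higher in mutant at 0 h. The mutant arrays read 4.80, 6.43, 5.55, 5.25 and 5.59 log2 units and the wild-type arrays 4.86, 4.65 and 4.86, with mutant array 1 inside the wild-type range and no wild-type array above background. The difference was 0.73 ± 0.22 (limma adjusted p = 0.0090), with a bound against background under 1. It kept its call on leaving out any single array (0.51 to 0.93 log2 units), was 0.78 (0.050) and 0.65 on the 0 h arrays of higher and of lower background, and missed the threshold with array weights (0.70, 0.058) and when only the 0 h groups were fitted (0.73, 0.18). The 12 h arrays did not overlap between genotypes, at 5.05 to 5.34 in mutant and 4.78 to 4.89 in wild type, yet the difference of 0.39 ± 0.22 missed the threshold (0.13). At 24 h it was 0.42 ± 0.22 (0.18). No change in culture passed for Bcl11a in either genotype. The B cell markers described above were higher in mutant at 0 h, when Bcl11a was, and also at 12 h, when Bcl11a did not pass. Their part in the Bcl11a difference was not tested.

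Mxi1, the MAX partner that opposes MYC, was lower in mutant than in wild type after 12 and 24 h of culture. At 0, 12 and 24 h mutant arrays read 4.83, 4.81, 5.25, 5.48 and 5.30, then 6.00, 5.81, 5.59, 5.52 and 5.78, then 6.22, 5.91, 5.88, 5.68 and 6.13 log2 units. Wild-type arrays read 4.74, 4.85 and 4.86, then 6.74, 6.91 and 7.01, then 6.79, 6.81 and 6.69. At 0 h 1 mutant array and no wild-type array was above background, and at both later times every array was. At 12 h against 0 h the normalised values were higher by 0.60 ± 0.16 in mutant (limma adjusted p = 0.0087) and by 2.07 ± 0.21 in wild type (8.9e-08). In mutant this was the only change among the 10 genes to pass in this interval, beside 27.9% of tested genes (23.2% higher, 4.62% lower). In wild type 4 of the 10 passed in this interval (Nfe2, Mxi1 and Klf1 higher, Klf3 lower, with Klf1 below background throughout), beside 44.7% (35.9% higher, 8.75% lower). No fold is given for the wild-type rise, since its bound against the 0 h background was under 1, so neither its size nor how far it exceeds the mutant rise is measured. The mutant difference was 0.14 (0.27) with the authors' processed values and 0.44 (0.051) with only the 0 h arrays of lower background.

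On the normalised scale, with that limit at 0 h, the genotypes differed in the Mxi1 change from 0 to 12 h by -1.47 ± 0.26 log2 units (limma adjusted p = 0.00057). The call held on leaving out any single array (-1.57 to -1.36) and on the 0 h arrays of higher background (-1.09, 0.0018), those of lower background gave -1.88, and with median centring the value was -0.49 (0.67). Between genotypes Mxi1 was lower in mutant by -1.15 ± 0.19 at 12 h (4.9e-05) and by -0.80 ± 0.19 at 24 h (0.0045), without overlap at either time. With median centring these were 0.07 (0.84) and -0.26 (0.66), or -0.70 and -0.52 relative to the median of all tested genes under that scaling, and with the authors' processed values -0.67 (1.5e-06) and -0.47 (0.00070). At 0 h the difference was 0.32 ± 0.19 (0.17).

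**Figure D3:**
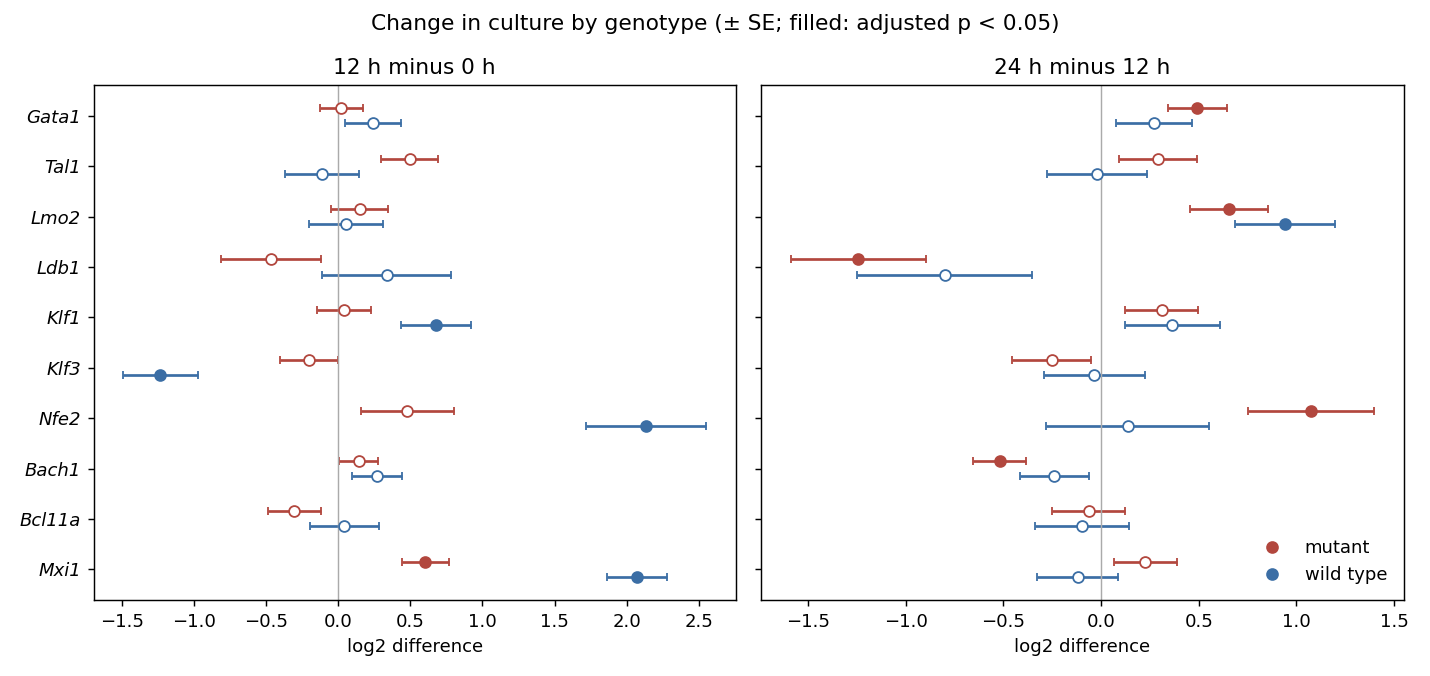
Log2 difference ± SE (horizontal axis) of the 10 genes between 12 and 0 h (left) and between 24 and 12 h (right) in mutant (n = 5 arrays per time) and wild type (n = 3), filled where the adjusted p was below 0.05. In the earlier interval Mxi1 changed by 0.60 in mutant and 2.07 in wild type and Nfe2 by 0.48 and 2.14, and in the later one Nfe2 changed by 1.08 and Ldb1 by -1.24 in mutant (-0.29 on the authors' processed values). At 0 h, 1 of 3 wild-type arrays was above background for Nfe2 and none for Mxi1.

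Over the whole culture, 7 of the 10 genes passed in mutant at 24 h against 0 h (Nfe2, Mxi1, Lmo2, Tal1 and Gata1 higher, Ldb1 and Bach1 lower), beside 44.6% of tested genes (29.5% higher, 15.1% lower). In wild type 6 passed (Nfe2, Mxi1, Klf1, Lmo2 and Gata1 higher, Klf3 lower, with Klf1 again below background), beside 49.2% (37.1% higher, 12.2% lower). Nfe2, Mxi1, Lmo2 and Gata1 passed as higher in both genotypes, although with median centring Mxi1 in mutant was at 0.45 (0.17). Gata1 lost its call in both genotypes under that scaling, and likewise on the authors' values, as given above. Its wild-type call also ended when certain single arrays were left out. For Gata1 no array of 0 h was above background, and at 24 h 4 of 5 mutant and 1 of 3 wild-type arrays were. In mutant 5 passed between 12 and 24 h (Nfe2, Lmo2 and Gata1 higher, Ldb1 and Bach1 lower), beside 27.2% (12.6% higher, 14.6% lower). From 12 to 24 h no gene of the 10 differed between genotypes in its change, beside 1.3% of tested genes (0.908% higher, 0.392% lower). The 24 h fall of Ldb1 and Bach1 in mutant went with a lower signal of B cell markers on the same arrays, of which 6 of 12 fell at 24 h against 0 h, and the part of these cells was not tested.

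Genes that work with these factors gave counts that are set beside the same background. Counts and differences of these lists are from quantile normalisation only, and their directions under the other scalings were not tested. Of the partners of the complex, 16 of 18 were on the array and 8 were tested, and 4 were higher and 0 lower in mutant at 0 h, 2 and 1 at 12 h, and 0 and 1 at 24 h. Of all tested genes, 34.1, 34.3 and 8.61% were higher at these times and 8.4, 15.9 and 8.17% lower. Cbfb, a subunit of core-binding factor, was at least 1.24-fold higher at 0 h (limma adjusted p = 8.1e-05), with 4 of 5 mutant arrays above background and overlapping genotypes. Tcf4, an E protein that pairs with TAL1, was at least 1.51-fold higher at 12 h (0.028), and Lmo4, a relative of LMO2, at least 1.34-fold (0.027). Ssbp2, which protects LDB1 from degradation, was lower by -0.89 ± 0.21 log2 units at 12 h (0.0019; 2 of 5 mutant and 1 of 3 wild-type arrays above background) and by -1.45 ± 0.21 at 24 h (2.7e-05; mean 5.30 ± 0.25 in mutant, SD, n = 5, and 6.75 ± 0.16 in wild type, SD, n = 3). Median differences of the list were 1.12, -0.07 and 0.09 at 0, 12 and 24 h.

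Other Krüppel-like and SP factors moved apart. Of 8 tested, 4 were higher and 3 lower in mutant at 0 h, 5 and 2 at 12 h, and 1 and 1 at 24 h, with median differences of 0.58, 0.75 and 0.43 log2 units. Over all tested genes 34.1, 34.3 and 8.61% were higher and 8.4, 15.9 and 8.17% lower. Klf16 was lower at all 3 times, by -2.50 ± 0.30 (limma adjusted p = 7.4e-07), -1.75 ± 0.30 (0.00010) and -0.89 ± 0.30 (0.044), without overlap of genotypes. Klf4 was lower by -1.90 ± 0.43 at 12 h (0.0016) and Klf10 by -1.75 ± 0.29 at 0 h (4.0e-05), with 2 of 5 mutant arrays above background for Klf10. In the other direction Klf7 was at least 1.31-fold higher (0.012) and Klf13 at least 1.06-fold higher (0.0081) at 12 h, and Klf9 differed by 0.83 ± 0.19 at 24 h (0.0037), with 4 of 5 mutant and 0 of 3 wild-type arrays above background and a bound under 1.

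Among the relatives of NFE2 and BACH1 and their small MAF partners, 4 genes were tested, and 2, 2 and 1 were higher in mutant and 0 lower at 0, 12 and 24 h (median 0.41, 0.42 and 0.39 log2 units), beside 34.1, 34.3 and 8.61% of all tested genes higher. Nfe2l1, which has the same kind of basic leucine zipper as NFE2, was at least 1.40-fold higher in mutant at 24 h (limma adjusted p = 2.2e-06), with 5 of 5 mutant arrays and 0 of 3 wild-type arrays above background. Mafg, a small MAF partner of both proteins, was higher by 1.22 ± 0.39 log2 units at 0 h (0.016). Its genotypes overlapped, with 1 of 3 wild-type arrays above background and a wild-type SD of 1.26. Only 2 genes of the MYC and MAX network were tested. Max, the partner of MXI1, differed by 1.32 ± 0.35 at 0 h (0.0046), with no wild-type array above background and a bound under 1. Mnt, another MAX partner, differed by -1.06 ± 0.34 at 12 h (0.016), where 1 of 5 mutant arrays and 0 of 3 wild-type arrays were above background, so no direction is read from it. Medians of these 2 genes were 0.31, -0.52 and -0.17.

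Of 12 tested corepressors that act with BCL11A and KLF3, 7 were higher and 0 lower at 0 h, 7 and 1 at 12 h and 0 and 0 at 24 h, beside 34.1, 34.3 and 8.61% of all tested genes higher, with median differences of 0.48, 0.53 and 0.38 log2 units. Bcl11b, the relative of BCL11A found in T cells, differed by 0.83 ± 0.23 at 0 h (limma adjusted p = 0.0056) and 0.70 ± 0.23 at 12 h (0.016), with overlapping genotypes, no wild-type array above background and a bound under 1. Hdac2 at 0 h and Rbbp7 and Zbtb7a at 12 h, also among the smallest p of the list, likewise had no wild-type array above background at those times. The count of higher corepressors is therefore not read as a result about them. Mta3, a subunit of the NuRD complex, was the gene of the list that was lower, by -2.002 ± 0.49 at 12 h (0.0030). Tested T cell markers were higher in mutant in 10 of 11 cases at 0 h and 9 of 11 at 12 h, and their part in the Bcl11b difference was not tested.

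Of 14 other regulators of blood cells that were tested, 5 were higher and 0 lower at 0 h, 3 and 2 at 12 h, and 3 and 0 at 24 h (median 0.35, 0.32 and 0.32 log2 units). The shares of all tested genes were 34.1, 34.3 and 8.61% higher and 8.4, 15.9 and 8.17% lower. Hbp1, an HMG-box repressor, was higher in mutant by 1.67 ± 0.33 at 12 h (limma adjusted p = 0.00047) and 1.59 ± 0.33 at 24 h (0.0017), where 5 of 5 mutant arrays at each time and 1 and 2 of 3 wild-type arrays were above background. At 0 h it differed by 2.41 ± 0.33 (4.1e-06), with 3 of 5 mutant and 0 of 3 wild-type arrays above background and a bound under 1. Ep300, the acetyltransferase p300, was at least 1.20-fold higher at 12 h (0.0029) and at least 1.60-fold at 24 h (0.00049). Trim33 (TIF1-gamma), which zebrafish need to elongate transcripts of red cell genes, was lower by -2.06 ± 0.44 at 12 h (0.00093), as was Fli1, an ETS factor of megakaryocytes, by -1.28 ± 0.31 (0.0024).

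Known red cell targets of the 10 factors, of which 22 were tested, passed as 14 higher and 0 lower at 24 h against 0 h in mutant (median 0.99 log2 units) and as 13 and 1 in wild type (1.11), beside medians of 0.10 and 0.33 over all tested genes. Of all tested genes, 29.5% were higher and 15.1% lower in mutant over this time, and 37.1% and 12.2% in wild type. Between genotypes 4 targets were higher and 7 lower in mutant at 0 h, 3 and 8 at 12 h and 4 and 4 at 24 h, with medians of -0.09, -0.11 and -0.11. All tested genes gave 34.1, 34.3 and 8.61% higher and 8.4, 15.9 and 8.17% lower. Gclm, the glutathione-synthesis subunit that BACH1 represses in other cells, was lower at all 3 times, by -4.15 ± 0.31 (limma adjusted p = 4.4e-10), -3.98 ± 0.31 (1.1e-09) and -3.12 ± 0.31 (1.4e-07). Tspo2, a red cell membrane protein, was lower by -2.73 ± 0.30 at 0 h (2.0e-07) and -2.42 ± 0.30 at 12 h (1.5e-06). The cell cycle inhibitor Cdkn2c was lower by -1.94 ± 0.26 (3.2e-06) and the heme enzyme Fech by -1.12 ± 0.16 (1.3e-05) at 12 h, while the heme enzyme Urod was higher by 1.38 ± 0.28 at 24 h (0.0014).

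**Figure D4:**
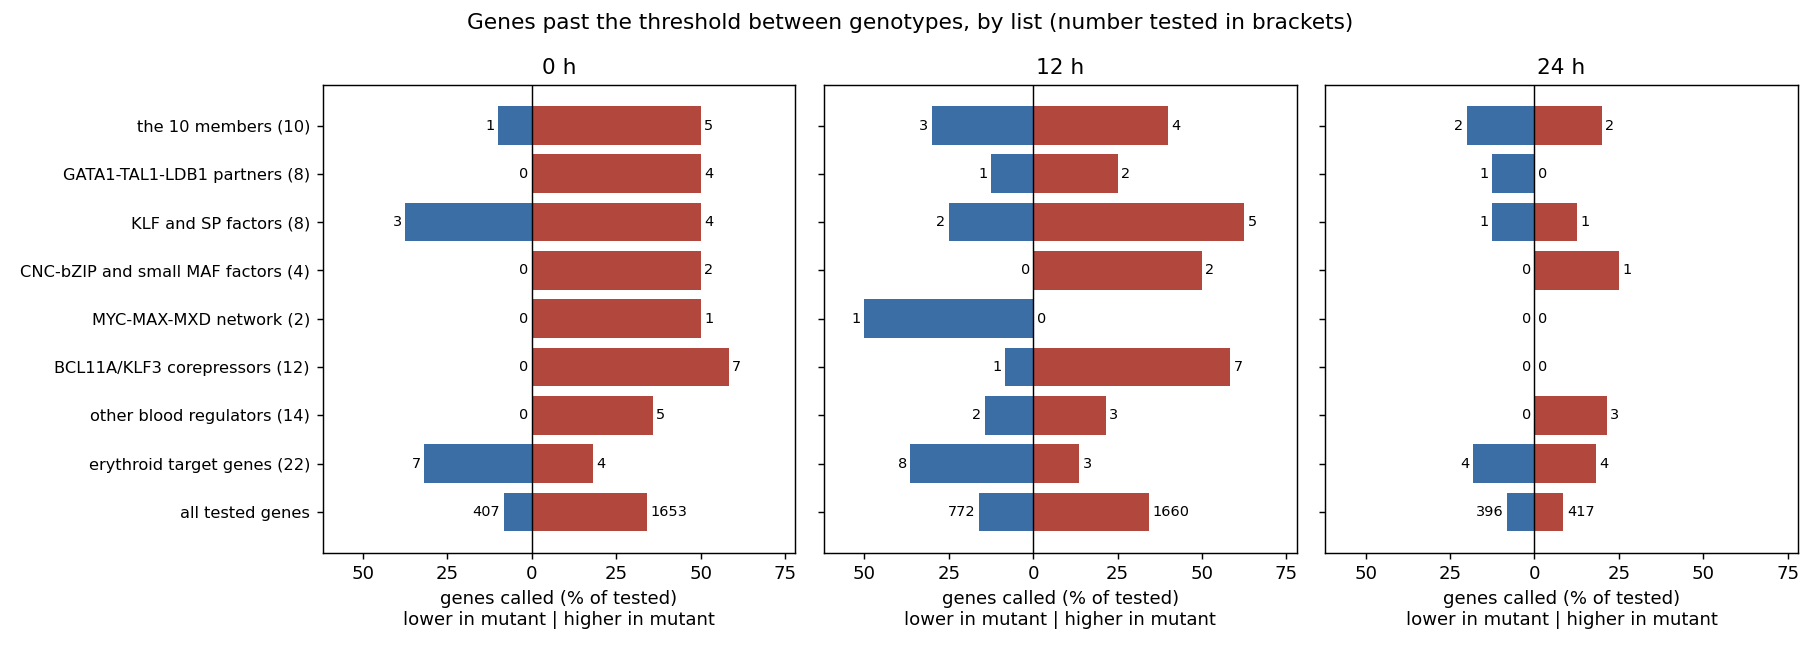
Percent of tested genes (horizontal axis) that passed the test between genotypes at 0, 12 and 24 h in quantile-normalised values, higher in mutant to the right and lower to the left, for the 10 factors, 7 related lists and all tested genes, with counts at the bars and the number tested in brackets. Among corepressors 7, 7 and 0 of 12 were higher at 0, 12 and 24 h, and among red cell targets 7, 8 and 4 of 22 were lower. Genes could pass the filter through mutant arrays alone, so bars are read only beside that of all tested genes.

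The genes whose normalised values followed each factor most closely over the 24 arrays are given as a description, since all values share arrays, genotype and time. Mxi1 ran most closely with Tmem38b (Pearson r = 0.978), Mfn1 (0.974) and Ndufa12 (0.966), and its lowest correlation among all tested genes was with Klf3 (-0.881). Nfe2 ran with Smdt1 (0.952) and with Kel (0.929), the blood group protein of the list of targets. Lmo2 ran with Elob (0.965) and against the ribosomal protein gene Rps4x (-0.940). Ldb1 ran with Eef1g (0.960), Nfkbid (0.954) and the Polycomb gene Suz12 (0.946), and Bach1 also ran with Nfkbid (0.868). Gata1 ran with Marchf5 (0.858), Lmo2 (0.858) and Ube2b (0.857), Tal1 with Ermap (0.862), another red cell target, Klf1 with Zfand2b (0.900), Klf3 with Ndufc2 (0.808) and Bcl11a with Fas (0.896).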

How the data were processed

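Per the labels' protocols, total RNA was purified on columns, amplified and biotin-labelled for Illumina bead arrays. The deposited unnormalised table gives an intensity per probe with no background subtraction, a detection p-value from the deposited table, and, as other deposited columns, a bead number and bead error per probe. The 10 genes rested on 23 to 59 beads per probe and array. The authors' processed intensity values are on a linear scale, with their method not given in the sources used here. For the comparisons here, values under 16 were set to 16, and all were put on a log2 scale and centred on the median of each array. Intensities were corrected by normexp with negative controls inferred from detection p-values, offset by 16, quantile-normalised and put on a log2 scale (limma 3.58.1 neqc, R 4.3.3). Probes with a detection p below 0.01 on at least 3 of 24 arrays (6312) and the brightest probe per gene (4846 genes) were kept. Group means of all 6 groups were fitted with limma (eBayes, trend), with Benjamini-Hochberg adjustment over all genes and a threshold of 0.05. The procedure was tested on simulated data. For a gene not above background on any array of a group, a fold is given as "at least", against the higher of its signal and the lowest signal above background on each array, and not where that bound was under 1. The 10 genes, 7 lists and 7 marker lists were chosen with earlier results of these data known. Of each list, up to 4 genes with the smallest p at 12 h and up to 2 in each other genotype comparison could be named if past the threshold, and for each of the 10 genes the 3 closest genes and the most opposed. Arrays with the same replicate number correlated in their residuals in every pair between 0 and 12 h (0.11 to 0.40) and 12 and 24 h (0.18 to 0.67) in mutant and between 12 and 24 h in wild type (0.31 to 0.51), so a replicate block was fitted as an alternative, and between genotypes numbers do not pair. Alternatives covered scaling, background, filter, probes, array weights, groups fitted, replicate block and each array left out. A split of 0 h arrays at a median raw signal of 200 was chosen after seeing the data. Promoter letters are from RefSeq GRCm38.p6. Plots were made in Python 3.11.15 (matplotlib 3.10.9).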

Additional observations from a re-analysis of the deposited data

Results flagged for a closer look

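Among 30 sets of arrays (10 genes in 3 mutant groups of 5), 3 held an array far from the others, with a gap to its nearest neighbour over 0.71 of the whole range. Chance sets apart about 1 in 20 such groups. Gata1 read 5.46 log2 units on mutant array 1 at 12 h, and Tal1 read 6.46 on the same array. Bcl11a read 4.75 on mutant array 5 at 24 h. The wild-type groups of 3 arrays were too small for this check. The change from 0 to 12 h differed between mutant and wild type in a test of the difference itself for Klf3 (1.03 log2 units), Nfe2 (-1.66) and Mxi1 (-1.47).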

How the results depend on the processing

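Of 44 differences past the threshold, the alternatives other than leaving out arrays kept direction and call in 466 cases, lost the call in 65 and reversed 4. Leaving out each array kept 1000 and lost 56. The chip could not be tried as a block, since the files name none, and the cause of each change below was not tested. Numbers of the 10 genes past the threshold moved as follows. The share of all tested genes that passed under each alternative is not given here, so these counts are not read as results about the 10 genes. With median centring they were 2 at 24 h (4 with quantile normalisation), 3 for the mutant change from 0 to 12 h (1), 4 for mutant from 0 to 24 h (7), 0 for wild type from 12 to 24 h (1), 3 for wild type from 0 to 24 h (6) and 0 for the genotype difference in the change from 0 to 12 h (3). The authors' processed values gave 0 for mutant from 0 to 12 h, 3 for mutant from 12 to 24 h (5), 0 for wild type from 12 to 24 h and 1 for the genotype difference in the change from 12 to 24 h (0). Without the detection filter there were 3 for mutant and 0 for wild type from 12 to 24 h. Array weights gave 3 at 0 h (6), 8 at 24 h, 2 for mutant from 0 to 12 h, 9 for mutant and 2 for wild type from 12 to 24 h, and 4 for the genotype difference in that change. Fitting only the groups compared gave 1 at 0 h, 8 at 24 h and 1 for the genotype difference in each change. The replicate block within genotype, random or fixed, gave 2 for mutant from 0 to 12 h, adding Tal1 (0.49, adjusted p 0.037 and 0.035), and a fixed block shared across genotypes, which the labels do not pair, ended the Klf3 call at 24 h (0.74, 0.065). The replicate block changed no other call. Leaving out each array gave 4 to 7 at 0 h, 5 to 8 at 12 h, 3 to 5 at 24 h, 1 to 2, 3 to 6 and 6 to 8 for mutant from 0 to 12, 12 to 24 and 0 to 24 h, 3 to 4, 0 to 1 and 5 to 6 for wild type, and 1 to 3 and 0 to 0 for the genotype difference in the changes. Directions turned with median centring for Gata1 at 24 h (0.074), Tal1 at 0 h (0.053), Lmo2 at 0 h (0.85), Klf1 at 12 h (0.42) and 24 h (0.28), Klf3 at 0 h (1.08), Nfe2 at 12 h (0.45), Mxi1 at 12 h (0.074), Ldb1 in mutant from 0 to 12 h (0.17), and Mxi1 from 12 to 24 h in mutant (-0.31) and wild type (0.029). They turned with the authors' processed values for Lmo2 (0.096) and Klf3 (0.074) at 0 h, and with the shared replicate block for Tal1 at 0 h (0.096) and Klf1 at 12 h (0.092) and 24 h (0.038). With only the 0 h arrays over 200, a split chosen after seeing the data, they turned for Klf3 (0.39) and Mxi1 (-0.026) at 0 h, for Lmo2 (-0.091), Ldb1 (0.0063) and Nfe2 (-0.087) in mutant from 0 to 12 h and for Ldb1 in wild type from 0 to 24 h (0.060). With only those under 200 they turned for Tal1 (0.079) and Nfe2 (-0.48) at 0 h and for Lmo2 (-0.034) and Ldb1 (-0.74) in wild type from 0 to 12 h. Leaving out 1 array turned Tal1 at 0 h (-0.089 to 0.079), Lmo2 in wild type from 0 to 12 h (-0.042 to 0.17), Ldb1 in wild type from 0 to 24 h (-0.81 to 0.050), Klf1 at 12 h (-0.21 to 0.015) and Klf3 at 0 h (-0.38 to 0.12), none of them past the threshold. Weak signals over background limit Gata1, Tal1, Klf1, Bach1 and Bcl11a.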
